A study of Mus musculus with 2 samples.

Results

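The Hox genes of the mouse were followed through the deposited DNase-seq lists of frontal cortex. Members were all protein-coding genes of GENCODE vM21 (mm10) whose symbol is Hox, a letter a to d and a number, which gave 39 of 21911 protein-coding genes with 83 annotated transcription start sites (TSSs). They lie in 4 clusters. The Hoxa cluster holds 11 genes in 105.3 kb (chr6:52155590-52260880), the Hoxb cluster 10 genes in 173.9 kb (chr11:96194316-96368256), the Hoxc cluster 9 genes in 115.8 kb (chr15:102921103-103036852) and the Hoxd cluster 9 genes in 96.83 kb (chr2:74668310-74765142). Each cluster was read with 100 kb of flanking DNA on both sides.

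The tissue was frontal cortex of male B6CASTF1/J mice, the F1 of a C57BL/6J and CAST cross, aged 10 days, with no treatment named. DNase-seq maps open chromatin by sequencing the places where the enzyme DNase I cuts DNA in isolated nuclei. The labels give 1 group of 2 biological replicates with separate biosamples, the same donor entry and a note of 3 males, without saying whether animals were pooled, so the spread between libraries may be technical. With no other condition, the values describe these 2 libraries without a test.

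Hox genes encode homeobox transcription factors that give cells their position along the head-to-tail axis. Within a cluster their order follows that axis: genes of the low-numbered paralog groups act in the hindbrain and neck, and those of the high-numbered groups in the trunk, tail, limbs and genitalia. The forebrain, from which the cortex arises, lies in front of the Hox expression domain, and Hox clusters outside their domain are a standard example of chromatin held silent by Polycomb. CTCF, a DNA-binding protein that marks chromatin boundaries, is known to bind between Hox genes in other cell types. CTCF binding and Polycomb marks were not measured here.

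Each library has 4 deposited peak lists. The main list is the one whose peaks all hold a base with a false discovery rate (FDR) under 0.001, and the looser list is the one at 0.05. The other 2 were derived from reads and are called the smaller and the larger read-derived list. Hotspots are wider domains of raised cleavage, and footprints are short stretches protected from cleavage inside open DNA. The main lists held 39608 and 45915 peaks in replicates 1 and 2, and 80.1% of replicate 1 peaks overlapped a replicate 2 peak. By the steps in the densities, replicate 2 was estimated to be 1.64 times as deep and is called the deeper library. This assumes that densities were scaled alike in both libraries. The tissue label was set against markers: 4 of 7 cortical excitatory neuron genes (57.1%), Neurod2 and Emx1 among them, had a main promoter peak in both libraries, and Neurod6, Tbr1 and Slc17a7 did not. The share of all protein-coding genes was 55.1%, so this count does not set the tissue apart. With looser peaks it was 6 of 7, against 61.3% of all genes. For other cells the main count was 2 of 4 for astrocytes, 2 of 4 for the oligodendrocyte lineage, 2 of 4 for microglia, 1 of 4 for endothelium and 2 of 4 for fibroblasts and mural cells, none above the share of all genes. With looser peaks it was 1 of 4 for endothelium and 3 of 4 for each of the others, also above 61.3%. The looser counts therefore do not set the tissue apart either.

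Within 1 kb of a TSS, 1 of the 39 Hox genes had a main peak in both libraries, which is 2.56%, against 55.1% of all protein-coding genes. That gene was Hoxa7 (ENSMUSG00000038236.8, chr6:52214491-52221854, minus strand), a central group gene that patterns the trunk. In 32 Hox genes no deposited list of either library had any interval in the promoter, peaks, hotspots and footprints included. In 33 no promoter base reached an FDR under 0.05 in either library. Neither count was made over all protein-coding genes, so how unusual they are is not known. All 10 Hoxb genes were among the 32, as were all 9 Hoxd genes, so the intervals that touched a promoter were all in the Hoxa and Hoxc clusters. The bulk tissue does not tell a site open in few cells from a site weakly open in many.

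The main-list sites inside the clusters mostly lay away from Hox promoters. Over the genome, 14712 of the 31722 shared main peaks lay over 1 kb from a TSS. That count is not limited to Hox promoters, so the measures differ. The Hoxd site, for example, lies away from Hox promoters but at a TSS of a noncoding gene. The main lists held 5 sites in the 491.8 kb of the clusters, each found in both libraries, and no site of 1 library alone. This is 1.02 shared peaks per 100 kb, against 1.2 in the genome. All 5 were also in the looser list, both read-derived lists and the hotspots of both libraries. The site in the Hoxa cluster lies at the Hoxa7 start. The Hoxb cluster has 2, one between Hoxb9 and Hoxb8 and one between Hoxb6 and Hoxb5. The Hoxc site lies between Hoxc9 and Hoxc8, and the Hoxd site lies at the start of the noncoding gene Hoxd3os1, on the Hoxd4 side of Hoxd8.

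The sequences of these 5 sites are shown because they carry the open chromatin of the clusters. They were read from the GRCm38.p6 RefSeq genome (mm10) on the plus strand, and capitals mark bases inside a footprint of both libraries. At Hoxa7 the stretch upstream of the TSS (chr6:52221855-52221940) and the footprint over a CTCF match just past the TSS (chr6:52221799-52221824) are given. The others are chr11:96278908-96279016 between Hoxb9 and Hoxb8, chr11:96301949-96302122 between Hoxb6 and Hoxb5, chr15:102987516-102987720 between Hoxc9 and Hoxc8 and chr2:74715862-74716051 at Hoxd3os1.
Hoxa7 upstream stretch: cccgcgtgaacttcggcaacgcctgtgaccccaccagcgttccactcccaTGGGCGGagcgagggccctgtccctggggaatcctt
Hoxa7 footprint: gagcCACACTGCCATCTCCTggaatt
Hoxb9 to Hoxb8: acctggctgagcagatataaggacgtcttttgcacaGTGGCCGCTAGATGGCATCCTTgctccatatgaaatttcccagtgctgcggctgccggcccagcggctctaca
Hoxb6 to Hoxb5: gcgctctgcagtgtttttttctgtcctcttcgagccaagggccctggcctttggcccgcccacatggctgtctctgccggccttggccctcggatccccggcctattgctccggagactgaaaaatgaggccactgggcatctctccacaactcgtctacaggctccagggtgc
Hoxc9 to Hoxc8: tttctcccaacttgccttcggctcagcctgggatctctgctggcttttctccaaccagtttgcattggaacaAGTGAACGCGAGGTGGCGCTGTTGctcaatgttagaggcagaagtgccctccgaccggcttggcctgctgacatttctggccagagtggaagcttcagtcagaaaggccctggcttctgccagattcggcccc
Hoxd3os1: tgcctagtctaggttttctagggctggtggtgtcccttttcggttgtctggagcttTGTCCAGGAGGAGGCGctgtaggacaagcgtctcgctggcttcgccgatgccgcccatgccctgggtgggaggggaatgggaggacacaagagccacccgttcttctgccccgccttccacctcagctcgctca

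**Figure D1:**
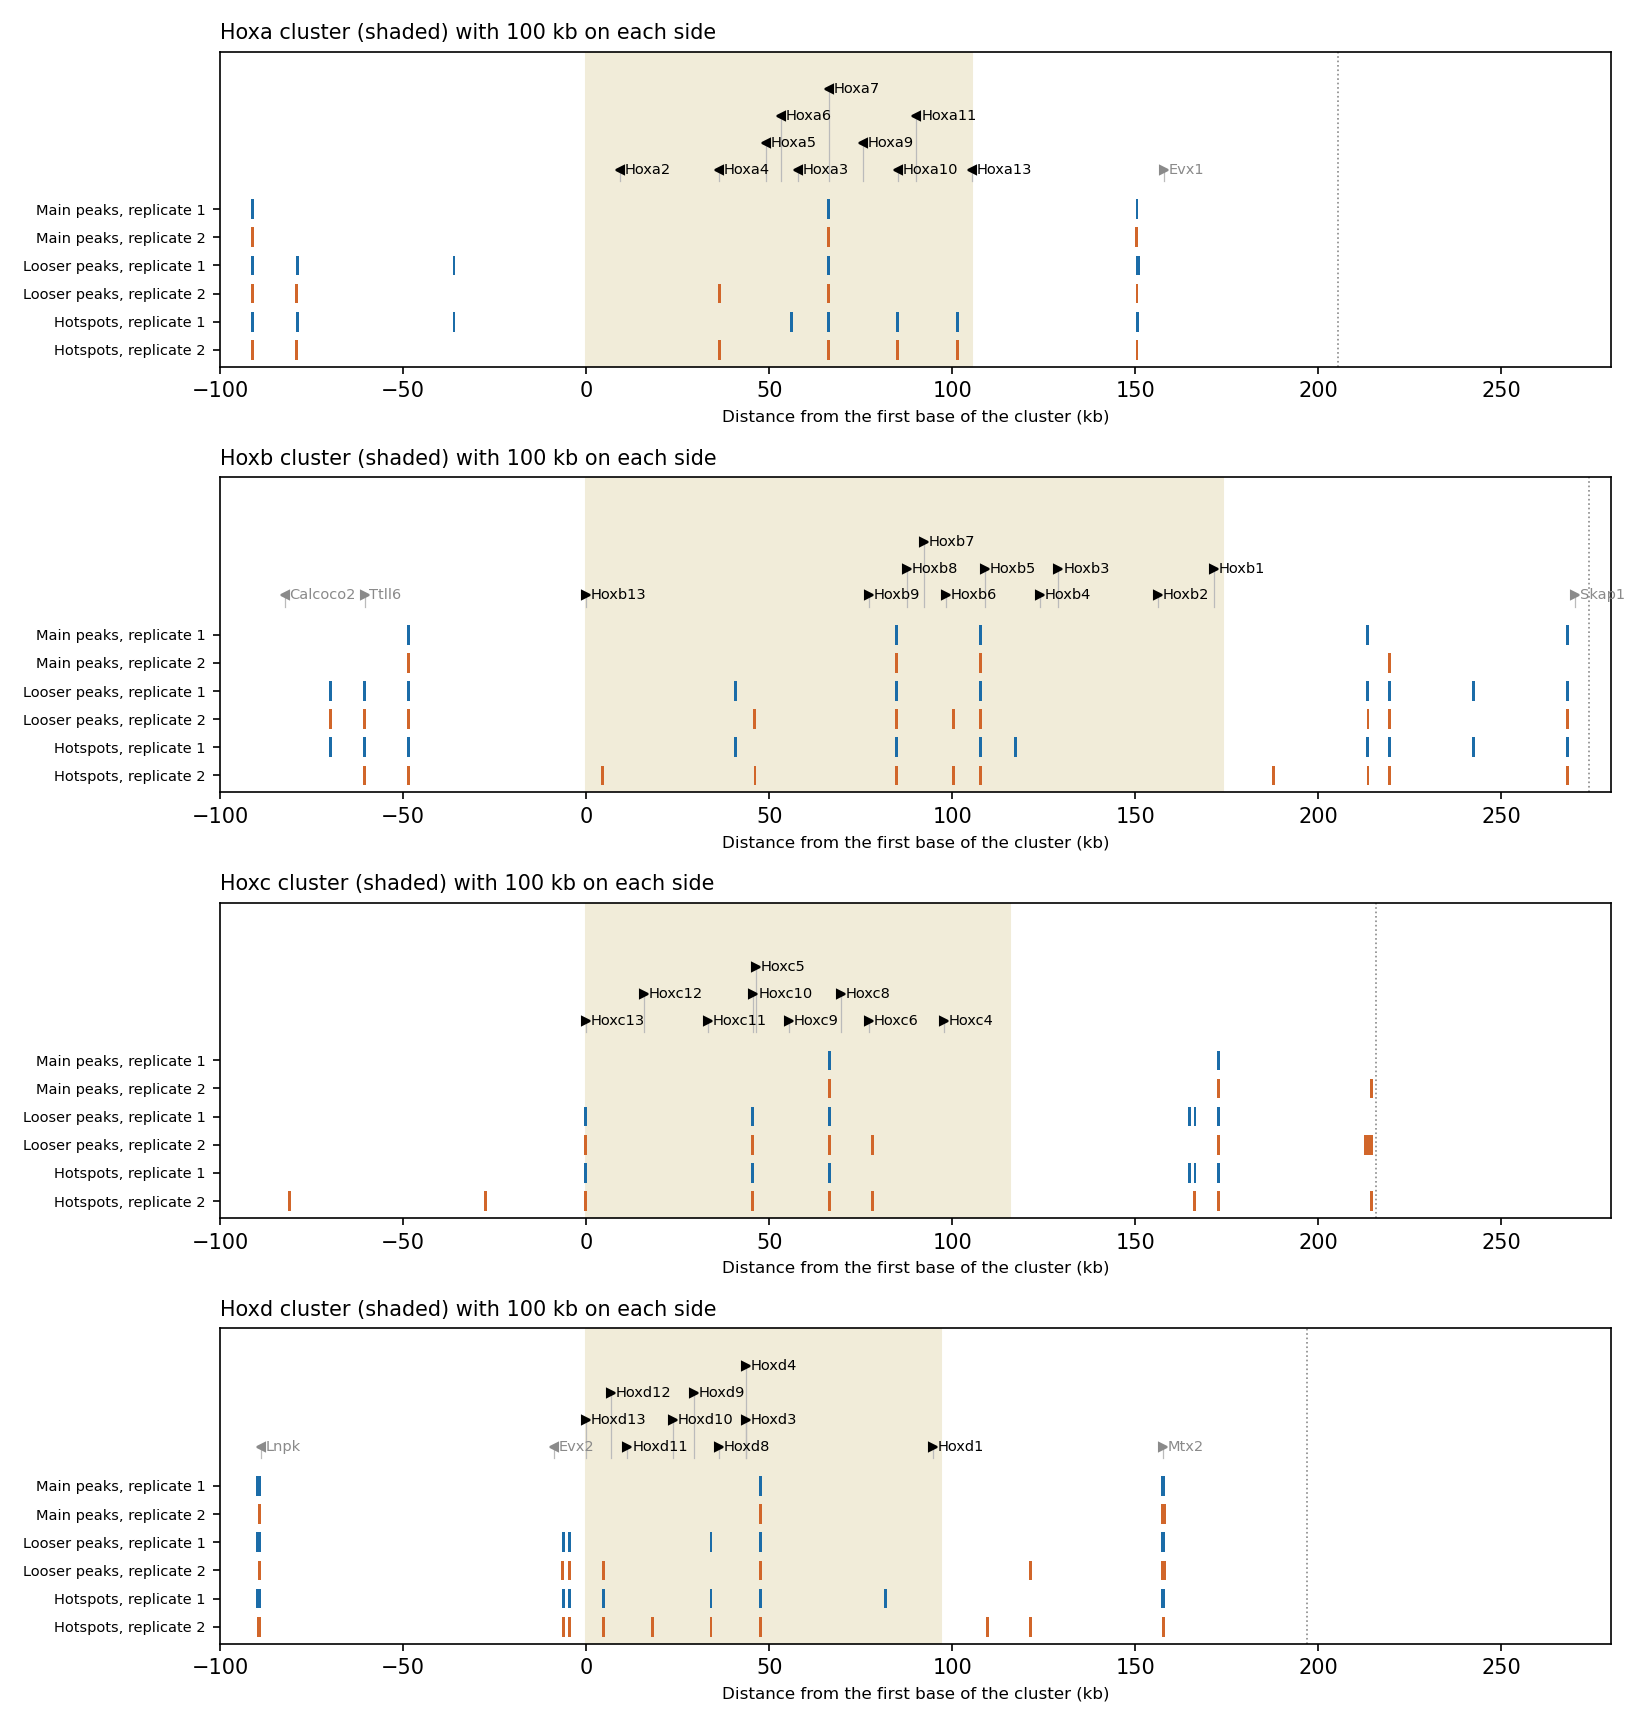
The 4 clusters (shaded) with 100 kb on each side, in kb from the first base of the cluster, with the Hox starts shown in black, other protein-coding starts in grey (arrowheads give the strand) and main peaks, looser peaks and hotspots of replicate 1 (blue) and replicate 2 (orange); narrow intervals are drawn wider than to scale, and dotted lines mark the far end of the flank. Inside the shading the main lists show 1 site in Hoxa, 2 in Hoxb, 1 in Hoxc and 1 in Hoxd, each in both libraries.

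The gap between Hox genes and other genes held in each kind of list. In the looser lists 4 Hox promoters carried a peak in each library (10.3%, Hoxa7, Hoxc5, Hoxc10 and Hoxc13), against 61.3% of all genes. In the smaller read-derived lists it was 1 gene (2.56%) against 57.9%, and in the larger ones 1 gene (2.56%) against 60.6%. A promoter hotspot in both libraries was listed for 5 Hox genes (12.8%, the 4 of the looser lists and Hoxa10), against 63.4% of all genes. Footprints were found in both libraries at 3 Hox promoters (7.69%, Hoxa7, Hoxc5 and Hoxc10), against 59.6%. A promoter base with FDR under 0.05 in both libraries was found for 4 Hox genes (10.3%), against 62.2%.

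**Figure D2:**
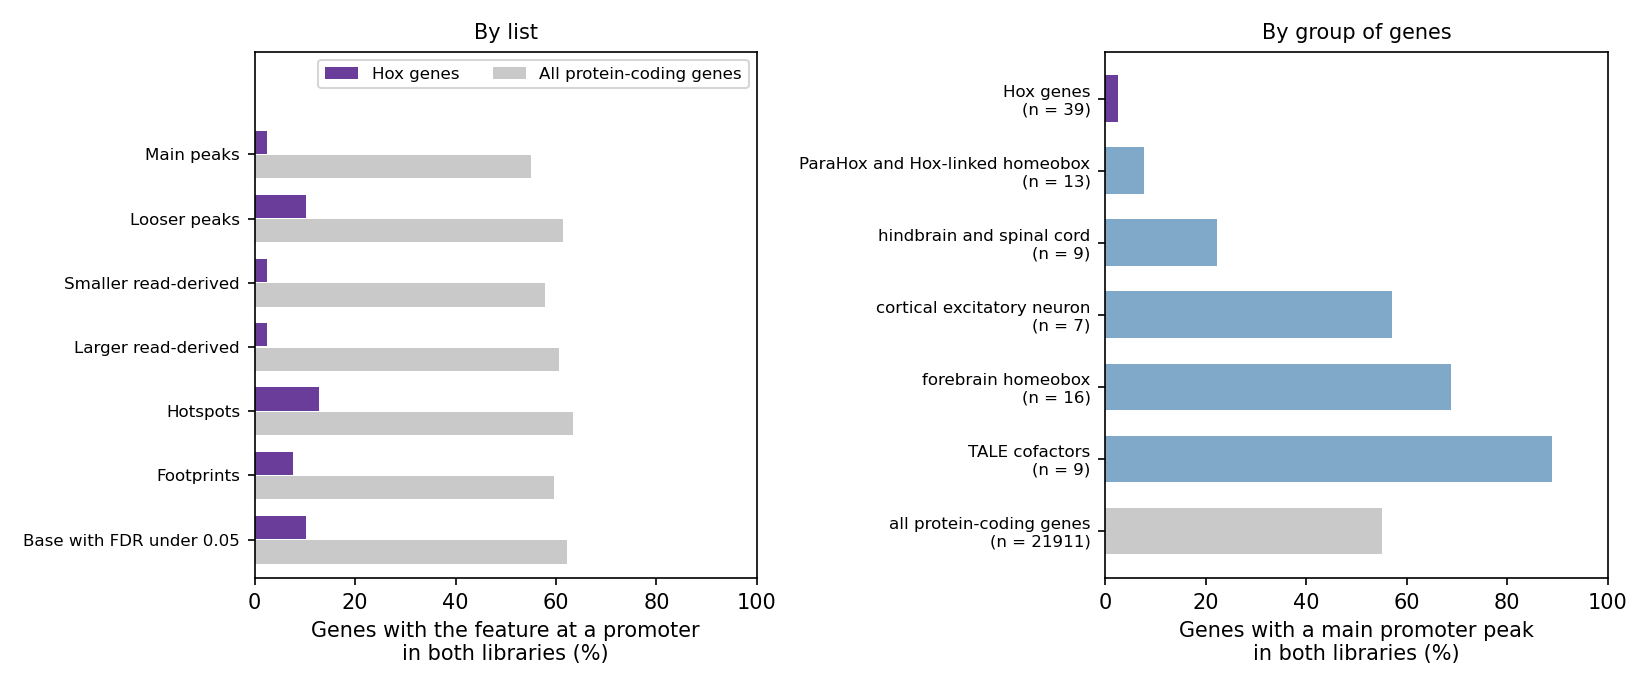
Share of genes (percent, horizontal axis) with each kind of promoter feature in both libraries, Hox genes above all protein-coding genes (left), and with a main promoter peak in both libraries by group of genes (right, n beside each group). Hox genes stand at 2.56% for main peaks and at most 12.8%, for hotspots, while all genes lie between 55.1% and 63.4%.

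Hoxa7 was the only Hox gene with a promoter interval in each of the 4 peak lists and the hotspots of both libraries. Its main peak had a density, the authors' depth-normalised cleavage signal, of 1.79 in replicate 1 and 0.764 in replicate 2. These values stand at percentiles 59.5 and 32.1 of all main peaks of their library, so the strongest Hox promoter was above the median peak in replicate 1 and below it in replicate 2. The lowest per-base FDR was 1.68e-07 in replicate 1 and 0.000132 in replicate 2, with 376 and 254 promoter bases under 0.05. Footprints numbered 3 in replicate 1 and 6 in replicate 2. The stronger value was thus in replicate 1, the shallower library.

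The other promoters with an interval were far weaker. Hoxc10 (ENSMUSG00000022484.7, chr15:102966796-102971893, plus strand), which takes part in lumbar motor neuron identity, had a looser peak of density 0.509 in replicate 1 and 0.395 in replicate 2, at percentiles 17.9 and 19.8 of the looser lists. Its lowest FDR was 0.0276 in replicate 1 and 0.00657 in replicate 2, and neither read-derived list held it. Hoxc5 was counted through the same peak, because its longest transcript starts beside Hoxc10 at chr15:102967443, so the 2 genes are 1 site. Hoxc13 (ENSMUSG00000001655.6, chr15:102921103-102928814, plus strand), a regulator of hair and nail keratin genes, had a looser peak of density 0.509 in replicate 1 and 0.329 in replicate 2. Its lowest FDR was 0.0159 in replicate 1 and 0.0114 in replicate 2, and it had 2 footprints in replicate 1 and 0 in replicate 2, by the lists made the same way in both libraries.

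The remaining signals were in 1 library or outside the peak lists. Hoxa4, an anterior gene of the neck region, had a looser peak of density 0.468, a lowest FDR of 0.013 and 2 footprints in replicate 2, the deeper library, and no interval in replicate 1. Hoxd1, known for a role in pain-sensing neurons, had 28 promoter bases under an FDR of 0.05 in replicate 1, the lowest at 0.0296, and none in replicate 2, and no list called it. Hoxa10, a gene of lumbar vertebrae and the uterus, had a hotspot in both libraries with a highest −log10 FDR of 1.73 in replicate 1 and 1.37 in replicate 2, while the separately made per-base track held no base under 0.05 there. It also had a footprint in both position-only lists of replicate 2. Hoxc6, a gene of the thoracic level, had a hotspot in replicate 2 only.

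**Figure D3:**
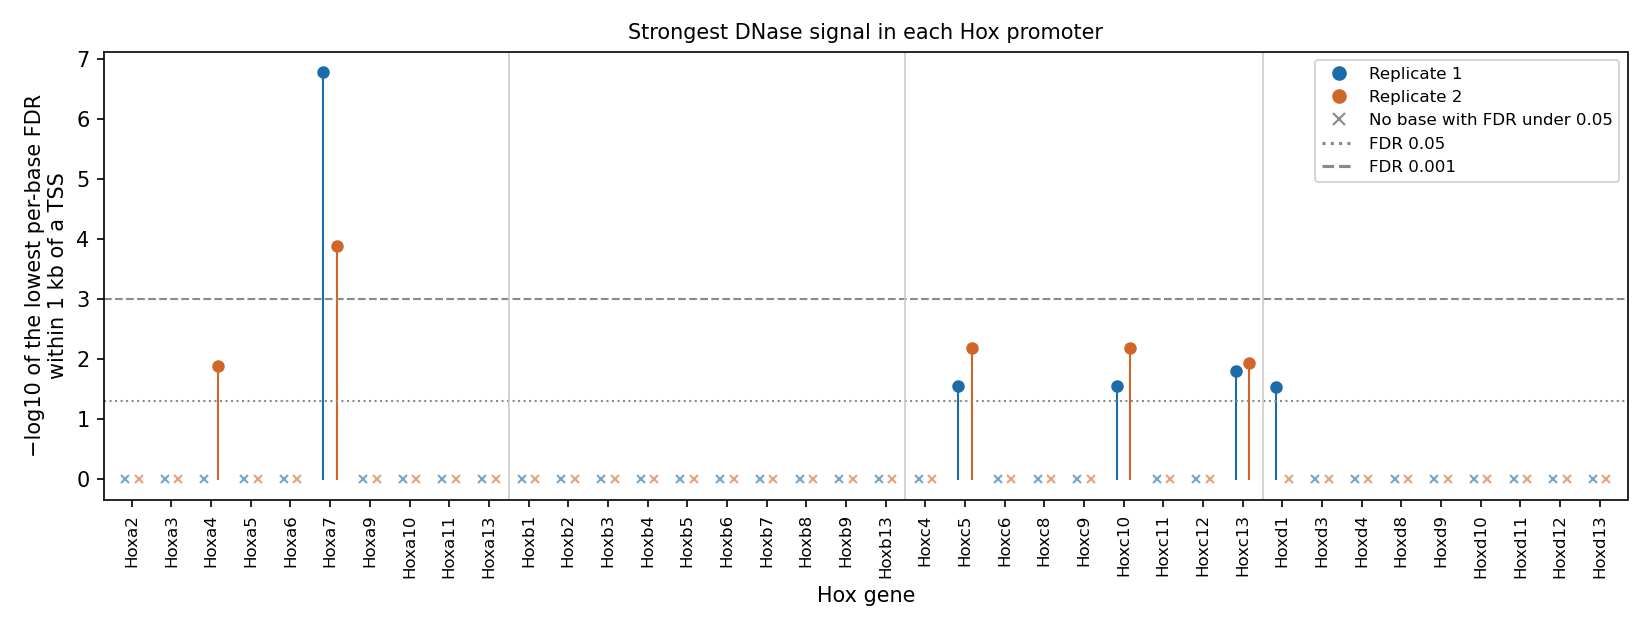
The lowest per-base FDR within 1 kb of a TSS for each Hox gene shown, as −log10 (vertical axis), with replicate 1 in blue and replicate 2 in orange; crosses at 0 mark promoters without a base under 0.05. Hoxa7 alone passes the dashed line at 0.001, and the crosses fill the Hoxb cluster and the Hoxd cluster apart from Hoxd1 in replicate 1.

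By place along the body axis, calls in both libraries fell on central and posterior genes. None of the 12 genes of paralog groups 1 to 4 had a looser promoter peak or hotspot in both libraries. Of the 11 central genes, groups 5 to 8, 2 had a looser peak and 2 a hotspot in both. Of the 16 posterior genes, groups 9 to 13, 2 had a looser peak and 3 a hotspot in both. Hoxa4 and Hoxd1, with signal in 1 library, are anterior. These are counts of a few genes, and the Hoxc5 call is shared with Hoxc10.

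In CpG content Hox promoters were nearer to the promoters with a peak than to those without. The ratio of observed to expected CpG in the 1 kb around the gene start had a median of 0.678 over the 39 Hox genes, with a range from 0.181 for Hoxb2 to 0.996 for Hoxa5. The median over all protein-coding genes was 0.552. It was 0.732 for genes with a main promoter peak in both libraries and 0.215 for genes without one in both. With a ratio of 0.6 or more and a GC content of 50% or more taken as CpG-rich, 24 Hox promoters were CpG-rich, and 1 of these (4.17%, Hoxa7) had a main peak in both libraries, against 87.9% of the 9725 CpG-rich promoters of all genes. Among the 24, Hoxd3 and Hoxd4 have nearly the same outermost start (chr2:74711927 and chr2:74711929), so this promoter is counted under both names. Hoxa5 and Hoxa13, with ratios of 0.996 and 0.931, had no interval in any list.

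**Figure D4:**
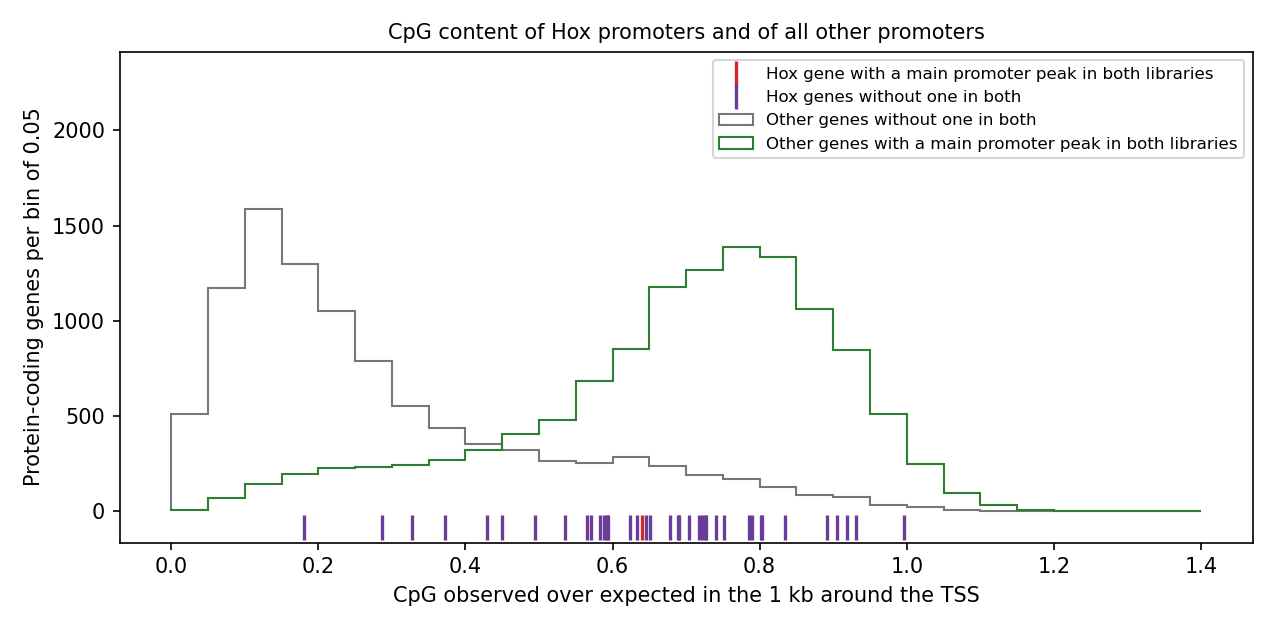
Ratio of observed to expected CpG (horizontal axis) for the Hox promoters, drawn as ticks below 0, and number of other protein-coding genes per bin of 0.05 (vertical axis), with a main promoter peak in both libraries in green and without one in both in grey. The Hox ticks run from 0.181 to 0.996, within the wider range of the green curve, whose genes have a median of 0.732. Only the Hoxa7 tick is red for a gene with a peak.

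The Hoxa7 site, 260 bp wide over both libraries (chr6:52221681-52221940), has its midpoint 43 bp from the Hoxa7 TSS, in annotated untranslated exon sequence of the gene. It also lies 1289 bp past the end of Hoxa9, the next gene in the cluster. The site between Hoxb9 and Hoxb8 lies in intergenic DNA, 2367 bp past the end of Hoxb9 and 2943 bp before the Hoxb8 start. Its density was 1.07 in replicate 1 and 0.777 in replicate 2, at percentiles 31.3 and 33.2, with a lowest FDR of 3.58e-05 and 0.000138. The site between Hoxb6 and Hoxb5 lies 467 bp past Hoxb6 and 1300 bp before the Hoxb5 start, in an intron of the antisense gene Hoxb5os. It was the weakest, with a density of 0.726 in replicate 1 and 0.751 in replicate 2, at percentiles 11.3 and 31.0.

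The site between Hoxc9 and Hoxc8 lies 2519 bp past the end of Hoxc9 and 2989 bp before the Hoxc8 start, inside the long intron of the extended Hoxc5 transcript. Its density was 1.28 in replicate 1 and 0.915 in replicate 2, at percentiles 42.1 and 43.6, and the lowest FDR of 6.09e-10 in replicate 2 was the lowest at the 5 sites, against 1.59e-05 in replicate 1. The Hoxd site has its midpoint 39 bp from the nearest annotated TSS of the noncoding gene Hoxd3os1, which is not the outermost one. It lies in an exon of that gene and inside introns of the extended Hoxd3 and Hoxd4 transcripts. Its density was 1.19 in replicate 1 and 0.85 in replicate 2, at percentiles 37.7 and 38.9, with a lowest FDR of 2.32e-05 and 1.59e-06. Apart from Hoxa7 in replicate 1, the 5 sites were below the median of the main peaks in both libraries.

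**Figure D5:**
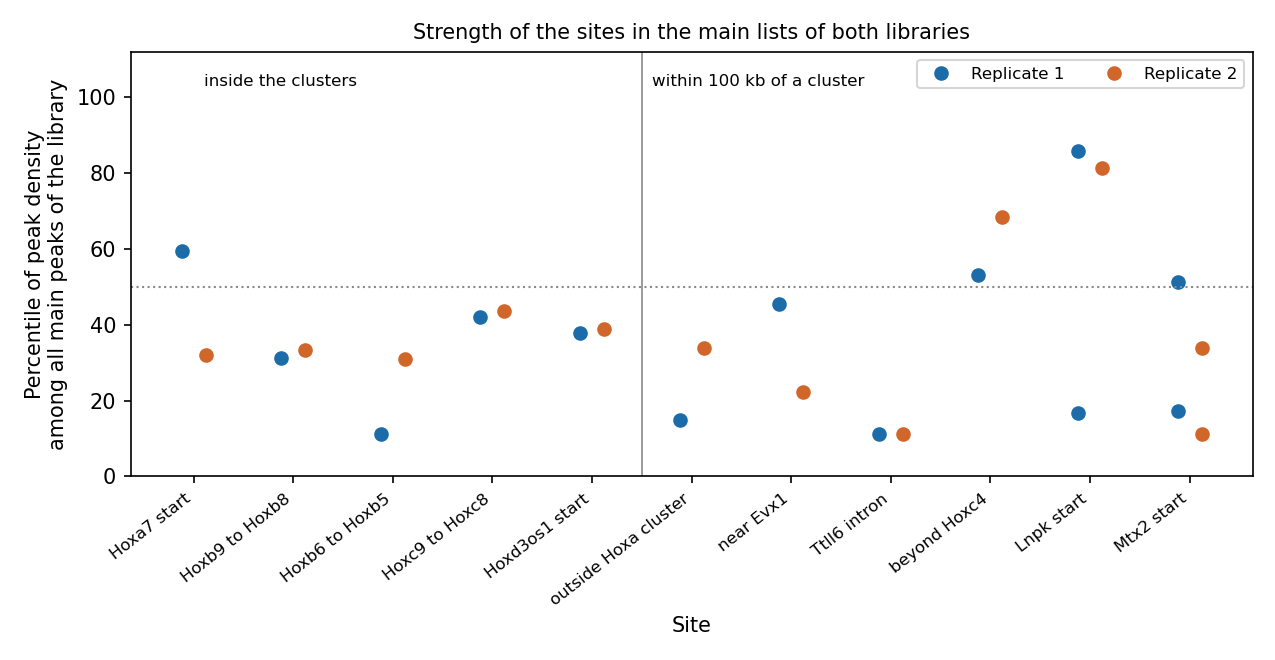
Percentile of peak density among all main peaks of the library (vertical axis) for each site in the main lists of both libraries, with the sites inside the clusters left of the line and the flanking sites right of it, in blue for replicate 1 and orange for replicate 2; a site with several peaks has several points. Inside the clusters the points lie between 11.3 and 59.5, and the highest flanking point is the Lnpk start at 85.9 in replicate 1.

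In 4 of the 5 sites a footprint was found at the same bases in both libraries, all but the site between Hoxb6 and Hoxb5. This is 80.0%, close to the 81.9% of all 31722 shared peaks. What these 4 footprints had in common was a sequence: each held the letters AGNNGGC whole, read on either strand (4 of 4), against 23.4% of the 25985 shared peaks with a common footprint. The letters overlap the CTCF consensus and were chosen after the sequences were seen. The 4 of 4 follows from that choice, so nothing is drawn from its contrast with 23.4%. At Hoxa7, which has other common footprints as well, they lie in chr6:52221803-52221818 on the minus strand. On the plus strand they lie in chr11:96278944-96278965 in the Hoxb site, in chr15:102987588-102987611 in the Hoxc site and in chr2:74715918-74715933 in the Hoxd site.

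The whole CTCF consensus of 12 letters was searched on both strands in the 200 bp around each midpoint. An exact match was found in 0 of the 5 sites, against 5.38% of all shared main peaks and 9.84% of those over 1 kb from a TSS. With up to 1 letter differing it was found in 2 of the 5 sites, against 15.7% of all shared main peaks. That share was 25.3% over 1 kb from a TSS and 7.38% within 1 kb, where the Hoxa7 site lies. The match at Hoxa7 (chr6:52221809-52221820, minus strand) reads CCAGGAGATGGC and lies 4 bp from the midpoint. The match between Hoxb9 and Hoxb8 (chr11:96278948-96278959, plus strand) reads CCGCTAGATGGC and lies 8 bp from the midpoint. Footprints of both libraries overlap each match. The Hoxd match, with 2 letters differing, lies inside the common footprint there. With up to 2 letters differing a match was found in 4 of the 5 sites (80.0%). The share was 39.4% of all shared main peaks and 48.0% of those over 1 kb from a TSS. The 15 other, weaker sites inside the clusters had such a match in 10 (66.7%), so it is not particular to the 5. The Hoxc match lies 65 bp from the midpoint, outside the common footprint. A match describes letters and does not show that CTCF was bound.

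A pattern of place runs through the clusters. Past the end of Hoxa9, Hoxb9 and Hoxc9 the next site in the main lists of both libraries lies within 3 kb, and 1 of the other 35 Hox genes, Hoxb6, has such a site. For hotspots in both libraries the count is 4 of 4 genes of paralog group 9, against 4 of the other 35 (Hoxa11, Hoxa13, Hoxb6 and Hoxd13). The fourth is Hoxd9, with a site 2157 bp past its end and 2250 bp before the Hoxd8 start. This position was singled out after the values were seen. When main peaks had to hold a base at FDR 0.0001 or lower in both libraries, the sites past Hoxa9 and Hoxb9 were lost, since their lowest FDR in replicate 2 was 0.000132 and 0.000138, and the site past Hoxc9 remained. Group 9 is where the posterior genes of each cluster begin.

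The site between Hoxd9 and Hoxd8 was weaker than its counterparts. It had a hotspot in both libraries, with a highest −log10 FDR of 3.14 in replicate 1 and 2.38 in replicate 2, and was in the larger read-derived list of both, with a density of 0.877 in replicate 1 and 0.519 in replicate 2. Replicate 1 alone had it in the looser list (density 0.888) and the smaller read-derived one, and neither library had it in the main list. Its replicate 1 peak (chr2:74702344-74702434) is shown with the replicate 1 footprints in capitals, because replicate 2 had none there in the footprint list made the same way. The larger position-only footprint list of replicate 2 held 3 in the whole site.
Hoxd9 to Hoxd8: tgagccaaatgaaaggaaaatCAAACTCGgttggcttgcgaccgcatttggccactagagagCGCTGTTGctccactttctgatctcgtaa
It holds a CTCF match with 1 letter differing, CCACTAGAGAGC (chr2:74702395-74702406, plus strand). It shares a run of 12 identical bases, gcgctgttgctc, with the site between Hoxc9 and Hoxc8, where the run is at chr15:102987603-102987614 and overlaps the common footprint. In the other 5 pairs of the 4 sites past the group 9 genes, the longest common run was between 7 and 11 bases.

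Other sites inside the clusters were weak or in 1 library. Over all lists there were 20 sites in the clusters, the 5 above and 15 more. The site at the Hoxc13 promoter lies just before the first base of the cluster and is counted with the flanks. Hotspots of both libraries lay at 10 of the 20, which besides the 5 and the site between Hoxd9 and Hoxd8 are the Hoxa10 and Hoxc10 starts, a site between Hoxa11 and Hoxa13 in an exon of 9530018H14Rik, and a site between Hoxd13 and Hoxd12. The last lies 1507 bp past Hoxd13, with a −log10 FDR of 1.79 in replicate 1 and 2.71 in replicate 2. In replicate 1 another 4 sites had a hotspot and in replicate 2 another 6. A CTCF match with up to 1 letter differing was found in 3 of the 15 and in 2 of the 39 Hox promoters (5.13%).

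By length, the clusters held about as many shared main peaks as the flanks and the genome, and less DNA covered by main peaks. Shared main peaks numbered 1.02 per 100 kb in the clusters, 0.875 in the 800 kb of flanks and 1.2 in the genome. In the other peak lists the clusters held fewer than the genome. Shared looser peaks numbered 1.22 in the clusters, 1.88 in the flanks and 2.1 in the genome. For the smaller read-derived lists the values were 1.02, 1.0 and 1.59, and for the larger ones 1.22, 1.38 and 2.06. Main peaks covered 0.157% and 0.152% of the clusters in replicates 1 and 2, against 0.25% and 0.257% of the flanks and 0.321% and 0.362% of the genome. Hotspots covered 0.828% and 0.962% of the clusters, against 0.972% and 0.987% of the flanks and 1.4% and 1.53% of the genome. By number, shared hotspots stood at 2.03 per 100 kb in the clusters, 1.75 in the flanks and 2.28 in the genome. With 5 or 6 shared peaks in the clusters per peak list, these densities are imprecise. The longest stretches without a main peak of either library were 66.1 kb in Hoxa, 84.6 kb in Hoxb, 66.4 kb in Hoxc and 49.1 kb in Hoxd, and no such stretches were measured elsewhere in the genome. From a Hox promoter to the nearest shared peak the median distance was 20.1 kb, against 0.08 kb over all protein-coding genes. The longest was 66.4 kb, for Hoxc13. Among genes without a main promoter peak in both libraries the medians were 20.4 kb for the 38 Hox genes and 40.0 kb for all 9838 genes. Over 10 kb away were 73.7% of these Hox genes, against 79.6% of all such genes.

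In the flanks the strongest site lay at the start of Lnpk. Of the 7 protein-coding genes with a start in the flanks, Lnpk and Mtx2, on either side of the Hoxd cluster, had a main promoter peak in both libraries. Lnpk, which shapes junctions of the endoplasmic reticulum, had a peak of density 4.69 in replicate 1 and 2.26 in replicate 2, at percentiles 85.9 and 81.4, with its site 89.6 kb from Hoxd13. Mtx2, part of the mitochondrial import machinery, had its stronger peak at 1.51 in replicate 1 and 0.784 in replicate 2, with its site 60.9 kb from Hoxd1. Evx1 and Evx2, homeobox genes at the posterior end of the Hoxa and Hoxd clusters, had no promoter peak or hotspot in any list. Neither did Calcoco2 or Skap1, and Ttll6 had a looser peak and a hotspot in both libraries.

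The other 4 shared flanking sites were away from coding starts. One lies 91.2 kb outside the Hoxa cluster (chr6:52064183-52064520), with a density of 0.791 in replicate 1 and 0.784 in replicate 2. One lies 45.2 kb beyond Hoxa13 and 7423 bp from the Evx1 start (chr6:52305975-52306175), with a density of 1.35 in replicate 1 and 0.645 in replicate 2. One lies in an intron of Ttll6, a tubulin-modifying enzyme, 48.5 kb beyond Hoxb13 (chr11:96145721-96145860), with a density of 0.726 and 0.501. It was absent from the smaller read-derived list of replicate 2, and it holds a CTCF match with 1 letter differing under a footprint of each library. The last lies 57.0 kb beyond Hoxc4 (chr15:103093705-103094000), with a density of 1.56 in replicate 1 and 1.47 in replicate 2, at percentiles 53.1 and 68.5. None of the 6 flanking peaks with a common footprint held AGNNGGC in it. Those letters were chosen from the cluster sites, so this does not set clusters and flanks apart.

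Near the posterior end of the Hoxd cluster, 2 weaker sites lay between Evx2 and Hoxd13, 6.34 kb and 4.54 kb outside the cluster, each with a looser peak and a hotspot in both libraries. The second had a looser density of 1.09 in replicate 1 and 0.586 in replicate 2. Main peaks of 1 library in the flanks were at 4 sites, 2 of replicate 1 and 2 of replicate 2, all beyond Hoxb1 or Hoxc4. Of the 3 other coding genes annotated inside the clusters none had a promoter peak in both libraries, and of 43 noncoding genes inside them 1 did, Hoxd3os1.

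Promoters of other homeobox genes and of marker genes were counted in the same way. The TALE homeobox proteins of the Pbx, Meis and Pknox families bind DNA together with Hox proteins, and 8 of their 9 genes had a main promoter peak in both libraries (88.9%), Pbx2 being in replicate 1 only. All 9 had a looser peak in both. Of 16 homeobox genes of the forebrain, 11 had a main peak in both (68.8%), among them Emx1, Emx2, Lhx2, Pax6, Cux1, Cux2, Dlx2, Dlx5, Pou3f2 and Pou3f3. Of 13 ParaHox and Hox-linked homeobox genes, Evx1 and Evx2 included, 1 did (7.69%), Gsx1, a factor of ventral forebrain progenitors. This share was near that of the Hox genes. Of 9 hindbrain and spinal cord markers 2 did (22.2%), Egr2 among them. These lists are short and the shares differ from the 55.1% of all genes without a test.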

How the data were processed

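DNase-seq interval lists of 2 libraries of 1 group were used as deposited by the authors, per library and on mm10. Per the text lists deposited with the samples, narrow peaks, per-base FDRs and footprints were made from filtered alignments, and the read-derived peaks and hotspots from reads. The aligner, callers and thresholds were not given in the sources used here. Peaks carry a cleavage density, a depth-normalised signal of the authors. Hotspots carry the highest −log10 FDR, per the file headers. The deposited per-base track holds FDR p-values under 0.05, and the deposited footprints carry a constant p-value of 0.01. The deposited position-only footprints of replicate 2 were an alternative. The FDR of 0.001 for the main and 0.05 for the looser list was read off the lowest per-base FDR found in each peak. Percentiles are ranks of density within a list.

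Each library has its own density step, of which every density is a whole multiple within 0.05 of a step. The ratio of steps was taken as the relative depth, which assumes the same scaling of densities in both libraries. Total read counts are unknown. Since mm10 is a C57BL/6J genome, reads of the CAST allele may map less often, which was not tested.

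Promoters were 1 kb to each side of any GENCODE vM21 TSS, and overlap was at least 1 bp. A shared peak is a replicate 1 peak that overlaps a replicate 2 peak. A site merges overlapping intervals of all lists, placed by the midpoint of its main peaks. CpG was counted 500 bp to each side of the gene start. Overlaps used Python 3.11.15, numpy 2.4.6 and pandas 2.3.3, plots matplotlib 3.10.9, and the overlap functions were checked on simulated data.

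All Hox genes are accounted for. Named in full are those with a promoter peak in any list of both libraries and, per cluster, the gene with the lowest per-base FDR, with every main site inside a cluster and the shared flanking sites. Hoxa4, Hoxa10, Hoxc6 and sites outside the main lists were named after their values were seen. The members, lists and rule were chosen with earlier results of these data known. A few genes are not reported here by name, and the plots by gene leave them out.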

Additional observations from a re-analysis of the deposited data

How the results depend on the processing

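The count of Hox promoters with a peak in each library, 1 in the main lists, was 4 in the looser lists, 0 when main peaks had to hold a base at FDR 0.0001 or lower and 2 with promoters of 2500 bp to each side. With either replicate left out it was 1 to 1. The 5 shared peaks inside the clusters became 2 under the stricter FDR and stayed at 5 to 5 without either replicate. The 12 shared peaks in clusters and flanks became 21 in the looser lists, 7 with flanks of 50 kb and 25 with flanks of 200 kb, and were 14 to 15 peaks with 1 replicate. Hox genes with a hotspot, 5 in all, became 8 with 2500 bp promoters and were 5 to 7 with 1 replicate. Those with a footprint, 3, were 4 to 4 with 1 replicate. CpG-rich Hox promoters with a peak, 1, became 0 at a CpG ratio of 0.75 or more and 2 in the looser lists, and were 1 to 1 with 1 replicate. In each promoter setting the share of all genes was above 50%. No paired analysis was possible because the labels give 1 group. Weak calls differed between libraries in both directions: inside the clusters 4 sites had a hotspot in replicate 1 only and 6 in replicate 2 only, the deeper library, and the part of depth in this was not tested. A promoter without an interval was not detectably open at these depths.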
